A study of Mus musculus with 36 samples.

Results

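The diet by age interaction in floating bone marrow cells, which the study calls adipocytes, is a difference of differences. It is the change on a high fat diet (HFD) at 14 months of age, taken as HFD minus chow, minus the same change at 6 months. It was measured on 12 of the 36 Affymetrix Mouse Gene 1.0 ST arrays of the series, 3 in each of 4 groups chosen by their labels: 14-month HFD, 14-month chow, 6-month HFD and 6-month chow. All mice were wild type C57BL/6J males, and each array carried RNA pooled from several mice, so a test measures the spread between pools. The cells were those that floated when marrow flushed from femurs and tibias was centrifuged after lysis of red cells. Values are on a log2 scale, and an interaction of size 1 is a 2-fold difference between the HFD to chow ratios at the 2 ages. A negative interaction means that the HFD to chow ratio was lower at 14 than at 6 months. The HFD drew most of its calories from fat and was fed for weeks up to the age given, and chow was the standard diet.

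Marrow adipocytes lie among blood-forming cells and share soluble signals with them. Immediate early genes, such as those of the AP-1 and EGR transcription factors, are switched on within minutes by growth factors, cytokines or stress, without new protein synthesis. NF-kappaB, held in the cytoplasm by inhibitor proteins until a cell is stimulated, induces cytokines together with its own inhibitors. Megakaryocytes, the large marrow cells that shed platelets, carry a distinct set of receptors, granule proteins and adhesion molecules.

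The labelled cell type was checked against its markers. The 9 measured markers of mature adipocytes averaged 6.99 in these arrays and 12.44 in the epididymal arrays of the same ages and diets, whereas 8 neutrophil markers averaged 12.63 in bone marrow and 6.26 in epididymal arrays. The adipocyte markers were thus lower and the neutrophil markers higher in bone marrow than in epididymal arrays. A lower level of a gene can mean fewer cells of a type or less RNA per cell, which cannot be told apart here. In bone marrow the erythroid markers averaged 10.2 and the megakaryocyte and platelet markers 9.24, also above the adipocyte markers. The interactions below are those of the whole preparation, and which of its cells gave them was not tested. Mean levels of the neutrophil markers lay between 12.31 and 12.50 in 14-month HFD arrays, 12.43 and 12.53 in 14-month chow arrays, 12.78 and 12.87 in 6-month HFD arrays and 12.69 and 12.80 in 6-month chow arrays. No marker of mature adipocytes, neutrophils, monocytes and macrophages, erythroid cells, osteoblasts, stroma or endothelium was called for the interaction, against 2.82% of all probe sets. At that share short lists like these can hold 0 calls. Of the B cell, plasma cell and T and NK cell markers, Ms4a1, Derl3 and Klrb1c were called negative, against 1.74% of all probe sets. The medians of these 3 lists were -1.01, -0.86 and -0.84. Pf4, Itga2b and Gp5 of the 5 measured megakaryocyte markers were called with a positive interaction, against 1.09% of all probe sets.

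A few probe sets also part the arrays into a grouping that the labels do not give. Among 12146 probe sets without a gene symbol, 18 separated 8 of the 36 arrays from the rest. These 8 include all 3 6-month HFD arrays and 6-month chow array 01 but no 14-month array. This division was picked as the most frequent of 24 that split a labelled group, and the next was made by 6 probe sets. Without chow array 01 the grouping and the 6-month HFD group cannot be told apart, so the interaction was also fitted without that array, with it as the only array of its group, and with a term for the 8 arrays. In the fit with array 01 alone both 6-month groups lie within the grouping, and its lone chow array is assumed to vary like the other groups. The median SD over probe sets was 0.12 in 14-month HFD, 0.137 in 14-month chow, 0.157 in 6-month HFD and 0.226 in 6-month chow arrays, the most variable group.

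Of 23410 probe sets tested with limma, 661 were called at a Benjamini-Hochberg adjusted p below 0.05 with an interaction of at least 2-fold, which is 2.82% of those tested. The interaction was negative for 407 (1.74%) and positive for 254 (1.09%). Most called probe sets had HFD differences of opposite sign at the 2 ages, namely 380 of the 407 negative and 238 of the 254 positive. Among negative calls the median HFD difference was -0.74 at 14 months and 0.71 at 6 months, and among positive calls it was 0.44 at 14 months and -0.82 at 6 months. The calls depended on the 6-month chow arrays: without array 01 there were 1518 calls (721 negative, 3.08%, and 797 positive, 3.4%), of which 622 were among the 661, and without array 03 there were 298 (221 negative, 77 positive). With array 01 as the only chow array there were 368 calls (268 negative, 1.14%, and 100 positive, 0.427%), and with the term for the 8 arrays 481 (263 negative, 1.12%, and 218 positive, 0.931%). A set of 203 probe sets, 150 negative and 53 positive, was called in all 4 of the fits on 30 arrays, without array 01, with array 01 alone and with the term.

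**Figure D1:**
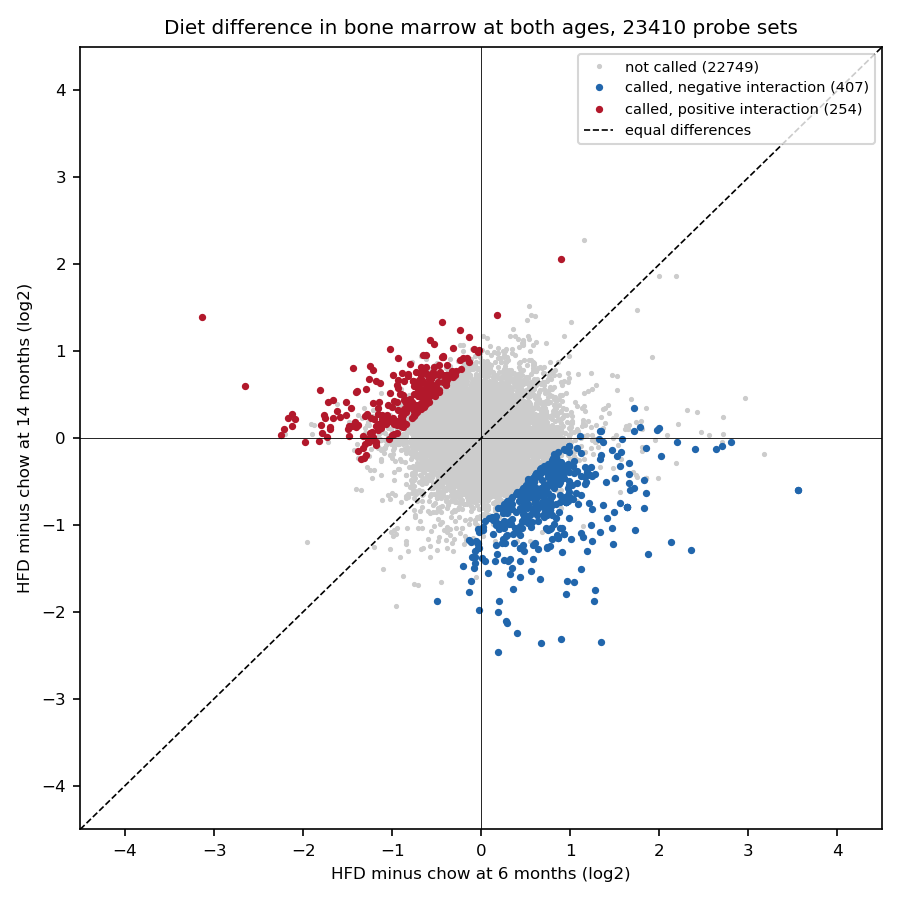
Each point is a probe set, with its HFD minus chow difference at 6 months on the x axis and at 14 months on the y axis, both in log2. The 407 negative calls lie below the dashed line of equal differences, mostly in the lower right quadrant, and the 254 positive calls lie above it, mostly in the upper left.

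Immediate early genes were mostly called negative. Of 32 measured, 18 were called with a negative interaction, against 1.74% of all probe sets, and 1, Nr4a3, with a positive one. The median interaction of the 32 was -1.22, against 0.02 over all probe sets, and for 19 of the 32 each of the 9 HFD to chow differences between single arrays at 14 months lay below each of the 9 at 6 months (5.51% of all probe sets). At 14 months the 3 HFD arrays all lay below the 3 chow arrays for 29 of the 32 genes, against 13.3% of all probe sets, whereas at 6 months they all lay above for 4 (6.16% of all probe sets) and below for 3 (8.98%). The median HFD difference of the list was -0.87 at 14 months and 0.30 at 6 months. The called members were the AP-1 subunits Fos, Fosb, Fosl1, Jun and Junb, the zinc finger factors Egr1 and Egr2, the stress-induced factor Atf3, the kinases Plk2 and Plk3, the phosphatases Dusp1, Dusp2 and Dusp6 that remove phosphate from MAP kinases, and Btg2, Ier3, Ier5, Rhob and Zfp36.

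Jun is the AP-1 subunit that pairs with FOS proteins. It read 9.46, 9.39 and 9.52 in 14-month HFD arrays, against 11.09, 11.03 and 11.17 in 14-month chow arrays. At 6 months it read 12.19, 12.08 and 12.15 in HFD arrays, against 10.99, 11.84 and 10.71 in chow arrays. The HFD and chow arrays did not overlap at either age, and they lay in opposite order at the 2 ages. The interaction was -2.60 (SE 0.233, limma adjusted p = 2.08e-07), and it was -2.51 without chow array 01 and -2.79 with that array alone. The limma fit of the 12 arrays alone gave an adjusted p of 0.0008.

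Atf3, a factor induced by many kinds of stress, read 9.0, 8.94 and 9.22 in 14-month HFD arrays, against 11.23, 11.46 and 11.56 in 14-month chow arrays. The 6-month values were 11.94, 11.82 and 11.77 in HFD arrays, against 10.93, 11.83 and 10.78 in chow arrays. Chow array 02 thus stood with the HFD arrays at 6 months, while at 14 months the diets were far apart. The interaction was -3.03 (SE 0.354, limma adjusted p = 2.04e-05).

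Plk2, a kinase of the polo-like family that is induced by serum, read 8.51, 8.34 and 8.57 in 14-month HFD arrays, against 10.76, 10.56 and 11.02 in 14-month chow arrays. In 6-month arrays the values were 9.45, 9.30 and 9.44 on HFD, against 7.48, 9.43 and 8.58 on chow. It was the list member with the most negative interaction, at -3.21 (SE 0.432, limma adjusted p = 7.62e-05). Its relative Plk3 had an interaction of -2.64 (SE 0.235, limma adjusted p = 2.08e-07), with 8.10 to 8.24 in 14-month HFD arrays and 10.35 to 10.42 in 14-month chow arrays.

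Fos, the partner of JUN, read 9.64, 9.69 and 9.55 in 14-month HFD arrays, against 10.87, 10.86 and 10.72 in 14-month chow arrays. The 6-month HFD arrays gave 11.64, 11.55 and 11.95, against 9.64, 11.80 and 9.97 in the chow arrays. The 14-month groups were tight and apart, whereas chow array 02 lay inside the range of the 6-month HFD arrays. The interaction was -2.43 (SE 0.453, limma adjusted p = 0.00223), and -3.10 without chow array 02. In the 12 arrays alone, where chow array 02 widens the spread, the limma adjusted p was 0.0313. Egr1 behaved alike, with an interaction of -3.14 (SE 0.501, adjusted p = 0.000611), and Fosb had -3.19 (SE 0.767, adjusted p = 0.0149), a call that was lost without chow array 03.

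Chow array 02 was the high array of its group across the list, whose mean level was 9.93 there, against 9.08 in chow array 01 and 9.17 in chow array 03. The same means were 8.93, 8.90 and 9.01 in 14-month HFD arrays, 9.84, 9.88 and 10.04 in 14-month chow arrays and 9.77, 9.73 and 9.84 in 6-month HFD arrays. Without chow array 02, a fit chosen after seeing the data, 21 members were called negative and 2 positive. Without chow array 01, which belongs to the 8 arrays, 15 were negative and 1 positive, and with that array as the only one 18 were negative and 2 positive. The call of 13 of the 18 negative members held in the fits without array 01, with it alone and with the term for the 8 arrays, and Fosl1, Ier3, Ier5, Dusp2 and Zfp36 lost it in at least 1 of them.

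The list was not uniform. Nr4a3, an orphan nuclear receptor, had a positive interaction of 1.24 (SE 0.336, limma adjusted p = 0.0295). Its relatives Nr4a1 and Nr4a2 did not pass the test, with interactions of -1.24 (adjusted p = 0.0651) and 1.07 (adjusted p = 0.0974). The interaction of the growth regulator Myc was -0.38 (adjusted p = 0.237) and that of the DNA damage gene Gadd45b was -0.07 (adjusted p = 0.929).

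**Figure D2:**
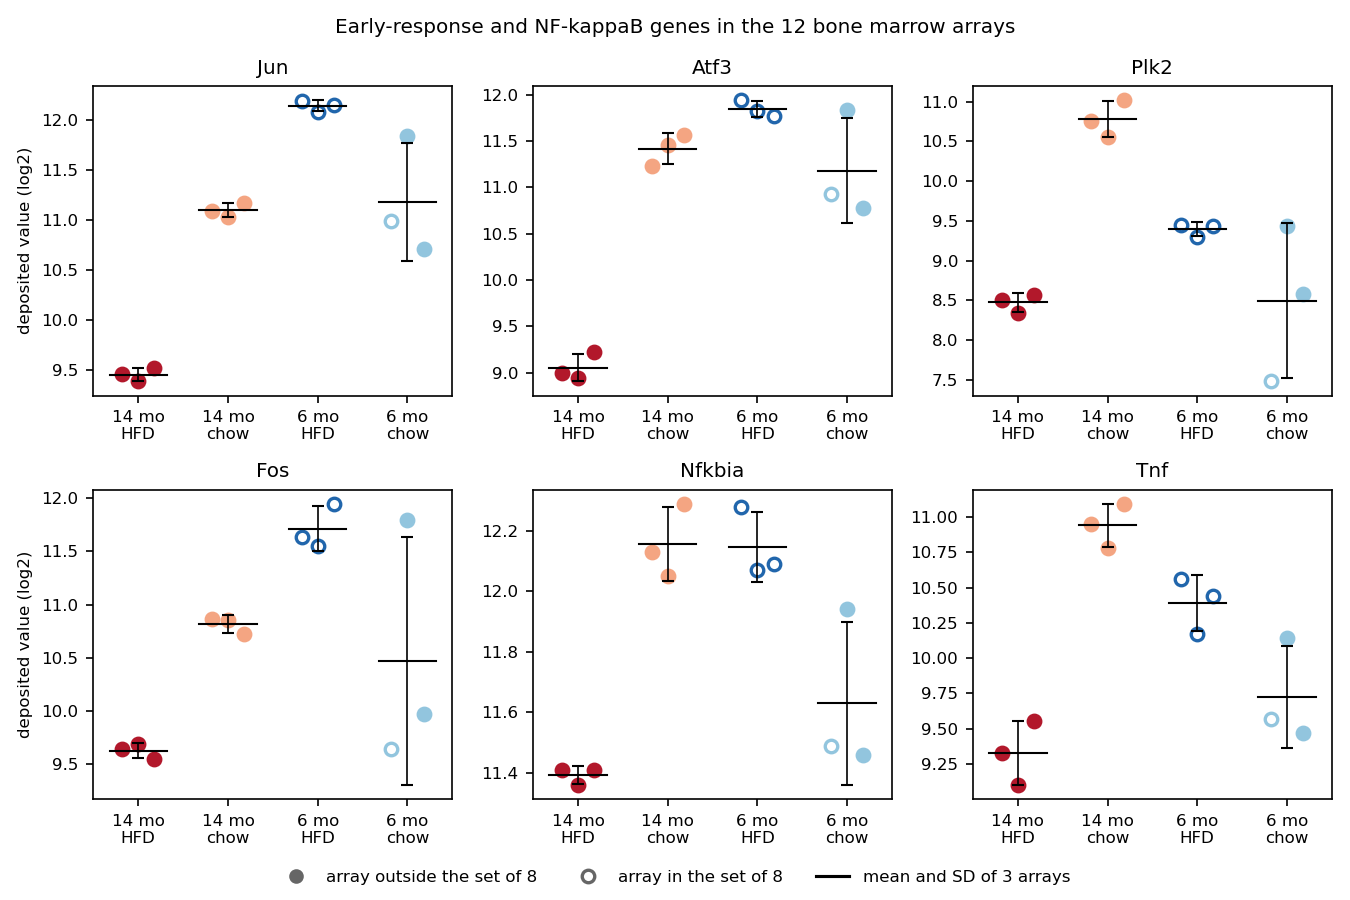
Deposited log2 values of 6 genes in each of the 12 bone marrow arrays, by age and diet; lines and bars are the mean and SD of 3 arrays, and open points are arrays of the set of 8. In each panel the 14-month HFD arrays lie below the 14-month chow arrays, and 6-month chow array 02 is the highest of its group.

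The start regions of 3 of these genes are shown because they carry the core of a cAMP response element, the site that binds CREB and ATF proteins. RefSeq promoter windows (GRCm38.p6, 300 bases around each start) were read for Fos (chr12:85473640-85473939, plus strand), Atf3 (chr1:191183284-191183583, minus strand) and Plk2 (chr13:110394794-110395093, plus strand), with each TGACG or its reverse complement in capitals.
Fos promoter: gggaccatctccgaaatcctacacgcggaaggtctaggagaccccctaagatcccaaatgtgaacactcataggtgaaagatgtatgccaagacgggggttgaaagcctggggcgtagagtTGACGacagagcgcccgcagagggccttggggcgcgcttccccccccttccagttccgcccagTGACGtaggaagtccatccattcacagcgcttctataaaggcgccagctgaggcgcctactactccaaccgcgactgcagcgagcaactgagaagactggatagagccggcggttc
Atf3 promoter: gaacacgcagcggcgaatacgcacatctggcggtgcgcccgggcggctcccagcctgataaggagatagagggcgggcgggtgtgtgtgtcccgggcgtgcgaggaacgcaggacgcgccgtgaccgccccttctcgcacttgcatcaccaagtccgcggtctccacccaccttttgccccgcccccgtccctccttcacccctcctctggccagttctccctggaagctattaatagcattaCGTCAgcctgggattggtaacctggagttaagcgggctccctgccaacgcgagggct
Plk2 promoter: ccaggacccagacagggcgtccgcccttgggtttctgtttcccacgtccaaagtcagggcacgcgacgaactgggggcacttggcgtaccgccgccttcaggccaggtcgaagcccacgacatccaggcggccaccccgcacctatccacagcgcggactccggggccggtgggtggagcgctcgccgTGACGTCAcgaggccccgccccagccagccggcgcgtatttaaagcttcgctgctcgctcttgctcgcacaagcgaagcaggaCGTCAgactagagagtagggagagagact
These letters, searched on both strands, were found in 14 of the 26 early genes with a promoter window (53.8%) and in 21% of all 27025 windows. Among called genes they were in 74 of 284 windows with a negative interaction (26.1%) and in 61 of 191 with a positive one (31.9%). The palindrome TGACGTCA of Plk2, which holds these letters on both strands, was also found in Btg2 and Dusp1, that is in 3 of the 26 and in 1.88% of all windows, and the AP-1 letters TGANTCA were in 0 of the 26 and in 7.93% of all windows. A match describes the sequence and shows no binding.

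Of 17 measured transcription factors of the Kruppel-like family, Klf2, Klf4, Klf6 and Klf10 were called negative, against 1.74% of all probe sets. Their interactions were -2.50, -2.34, -2.06 and -1.59. The other 13 were not called, and the list, with 12 negative and 5 positive signs, had a median of -0.25. Klf6 read 9.75, 9.89 and 9.92 in 14-month HFD arrays, against 10.51, 10.71 and 10.81 in 14-month chow arrays. At 6 months it read 11.68, 11.57 and 11.71 in HFD arrays, against 9.64, 11.57 and 10.03 in chow arrays. Again chow array 02 equalled an HFD array. Klf2 and Klf4 lost their calls in the fit of the 12 arrays alone (adjusted p = 0.0731 and 0.0633), and Klf10 with array 01 as the only chow array (-1.18, adjusted p = 0.26).

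Among 22 genes of NF-kappaB and its feedback, 6 were called negative and 1 positive, against 1.74% and 1.09% of all probe sets. The list median was -0.42. The negative calls were the inhibitor Nfkbia, its relatives Nfkbid and Nfkbiz, the ubiquitin-editing inhibitor Tnfaip3, Tnfaip2, and Nlrp3, the sensor of an inflammasome. All 6 kept the call in the fits without array 01, with it alone and with the term for the 8 arrays. The NF-kappaB subunits Rela, Rel, Relb and Nfkb2 did not pass the test and had interactions between -0.44 and 0.35. The inhibitor genes Nfkbib (-0.23, limma adjusted p = 0.751) and Nfkbie (-0.4, limma adjusted p = 0.346) did not pass either.

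Nfkbia, the inhibitor that retains NF-kappaB in the cytoplasm, read 11.41, 11.36 and 11.41 in 14-month HFD arrays, against 12.13, 12.05 and 12.29 in 14-month chow arrays. The 6-month values were 12.28, 12.07 and 12.09 in HFD arrays, against 11.49, 11.94 and 11.46 in chow arrays. The diets did not overlap at either age and lay in opposite order. The interaction was -1.28 (SE 0.185, limma adjusted p = 0.000178). Its window (chr12:55492598-55492897, minus strand, RefSeq GRCm38.p6) is shown for the NF-kappaB site in capitals, a motif found on either strand in 8.18% of all windows.
Nfkbia promoter: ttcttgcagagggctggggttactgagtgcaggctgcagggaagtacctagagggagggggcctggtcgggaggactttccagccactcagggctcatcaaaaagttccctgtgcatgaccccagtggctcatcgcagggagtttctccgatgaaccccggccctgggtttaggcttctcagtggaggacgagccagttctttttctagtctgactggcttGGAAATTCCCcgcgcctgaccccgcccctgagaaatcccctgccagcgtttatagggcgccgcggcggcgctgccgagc

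Tnfaip3 had an interaction of -1.82 (SE 0.227, limma adjusted p = 4.1e-05), with 10.47 to 10.61 in 14-month HFD arrays and 11.67 to 11.93 in 14-month chow arrays. Nlrp3 read 7.14, 7.04 and 7.30 in 14-month HFD arrays, against 8.93, 8.47 and 9.06 in 14-month chow arrays. In 6-month arrays the values were 9.83, 9.86 and 9.63 on HFD, against 8.21, 9.80 and 8.19 on chow. Its interaction was -2.70 (SE 0.445, limma adjusted p = 0.0008). The exception in the list was Tnip3, a TNFAIP3-binding protein, with a positive interaction of 1.71 (SE 0.455, adjusted p = 0.0267). With array 01 as the only chow array it was 1.67 and missed the threshold (adjusted p = 0.164).

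The 24 measured genes of cytokines and their signalling had calls in both directions, against 1.74% of all probe sets called negative and 1.09% positive. The cytokine genes Tnf, Osm, Csf1 and Ebi3 and the enzyme gene Ptgs2 were negative, and Il10, Il6 and Cish, an intracellular inhibitor of cytokine receptors, were positive. Tnf read 9.33, 9.10 and 9.55 in 14-month HFD arrays, against 10.95, 10.78 and 11.09 in 14-month chow arrays. The 6-month HFD arrays gave 10.56, 10.17 and 10.44, against 9.57, 10.14 and 9.47 in the chow arrays. The 2 diets were apart at both ages, more widely at 14 months, and the interaction was -2.28 (SE 0.268, limma adjusted p = 2.04e-05). Ptgs2, the inducible cyclooxygenase, was 9.82, 9.78 and 10.15 on HFD at 14 months, against 11.87, 11.89 and 11.93 on chow, while the diets overlapped at 6 months, between 11.20 and 11.55 on HFD and 11.26 and 11.49 on chow. Its interaction was -1.95 (SE 0.557, adjusted p = 0.039). In the 12 fits that leave out an array it lay between -2.07 and -1.85 and missed the threshold in 10, whereas the fit of the 12 arrays alone gave an adjusted p of 0.000439.

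Il6, which encodes an inflammatory cytokine, moved the other way from Tnf. It read 6.81, 6.85 and 7.47 in 14-month HFD arrays, against 6.49, 7.12 and 7.66 in 14-month chow arrays. At 6 months it read 6.74, 6.53 and 5.61 in HFD arrays, against 8.69, 8.13 and 8.0 in chow arrays. The diets overlapped at 14 months and were apart at 6 months, and the interaction was 1.94 (SE 0.51, limma adjusted p = 0.0256), and with array 01 as the only chow array it was 2.35 (adjusted p = 0.051). Il10, which encodes an anti-inflammatory cytokine, had an interaction of 1.24 (SE 0.362, adjusted p = 0.0433) and read 7.41, 7.31 and 8.37 in 14-month HFD arrays, against 5.98, 6.47 and 6.38 in 14-month chow arrays. That call was lost in 9 of the 12 fits that leave out an array.

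Of 30 chemokine genes, Cxcl2, Ccl2 and Ccl6 were called negative and Pf4 positive, against 1.74% and 1.09% of all probe sets. Ccl2, which attracts monocytes, read 5.37, 5.63 and 6.21 in 14-month HFD arrays, against 7.59, 6.70 and 7.47 in 14-month chow arrays. The 6-month values were 8.72, 8.21 and 8.32 in HFD arrays, against 7.20, 7.91 and 6.79 in chow arrays. The diets did not overlap at either age, and the interaction was -2.63 (SE 0.505, limma adjusted p = 0.00276). Cxcl2, which attracts neutrophils, differed mostly at 14 months, with 9.17 to 9.34 on HFD, against 11.39 to 12.09 on chow, and had an interaction of -2.65 (SE 0.657, adjusted p = 0.0181). With array 01 as the only chow array Cxcl2 missed the threshold (-2.89, adjusted p = 0.0712).

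Receptors of myeloid cells leaned the same way. All 32 measured had a negative interaction, also after median centring and quantile normalization, with a median of -0.81. Of these 7 were called, against 1.74% of all probe sets: Cd300ld, Tlr13, Hcar2, Cd180, Tlr6, Fcgr3 and Tlr9. For 17 of the 32 the single-array differences at 14 months all lay below those at 6 months, against 5.51% of all probe sets. Cd300ld, an activating immunoglobulin-like receptor, read 9.26, 9.19 and 9.11 in 14-month HFD arrays, against 10.41, 10.22 and 10.41 in 14-month chow arrays. In 6-month arrays the values were 10.17, 10.28 and 10.74 on HFD, against 9.30, 9.87 and 8.98 on chow. The interaction was -2.17 (SE 0.407, limma adjusted p = 0.00231). Cd300ld and Tlr6 kept the call in the fits without array 01, with it alone and with the term, and the others did not. The 9 monocyte and macrophage markers averaged 8.95 to 9.57 in 14-month HFD arrays, 9.47 to 10.04 in 14-month chow arrays, 8.58 to 9.20 in 6-month HFD arrays and 8.86 to 9.07 in 6-month chow arrays, and their part in these results was not tested. Of 25 macrophage genes only Fgl2 and Timd4 were called, both negative, against 1.74% of all probe sets.

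P2ry13, an ADP receptor, was among the 12 most negative calls whose single-array differences at the 2 ages did not overlap, at -2.75 (SE 0.44, limma adjusted p = 0.000611). It read 7.28, 7.31 and 7.56 in 14-month HFD arrays, against 9.46, 9.15 and 8.91 in 14-month chow arrays. The 6-month HFD arrays gave 9.62, 9.38 and 10.10, against 8.70, 9.21 and 8.32 in the chow arrays. The diets did not overlap at either age. Gm5150, also among the 12, had an interaction of -2.70 (SE 0.592, adjusted p = 0.00782) that missed the threshold with the term for the 8 arrays (adjusted p = 0.0542).

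Cd69, an early activation marker of lymphocytes, read 8.55, 8.65 and 8.63 in 14-month HFD arrays, against 10.26, 10.26 and 10.58 in 14-month chow arrays. At 6 months it read 10.61, 10.47 and 9.75 in HFD arrays, against 9.28, 9.19 and 8.52 in chow arrays. The diets did not overlap at either age, and the interaction was -3.03 (SE 0.396, limma adjusted p = 5.35e-05). Of 24 genes of T and NK cells Cd69 and the NK cell receptor Klrb1c were called. So were Ms4a1, Cd22 and Fcer2a of 21 B cell genes and Derl3 of 14 plasma cell genes. All were negative, against 1.74% of all probe sets called negative. With array 01 as the only chow array the 3 B cell genes missed the threshold, with interactions of -1.63, -1.13 and -1.5 (adjusted p = 0.0916, 0.0935 and 0.0932), against -1.81, -1.43 and -1.43 in the fit of 30 arrays. The B cell markers averaged 8.14 to 8.45 in 14-month HFD arrays, 8.90 to 9.21 in 14-month chow arrays, 7.86 to 8.84 in 6-month HFD arrays and 7.84 to 8.24 in 6-month chow arrays, and their part was not tested.

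Genes induced by interferon and by glucocorticoids held further negative calls, against 1.74% of all probe sets called negative. All 24 measured interferon-induced genes had a negative interaction (23 after quantile normalization), with a median of -0.57, and Oasl2, Ifit3, Oas2, Usp18 and Ddx58 were called. Oas2, an enzyme whose product activates RNA decay in infected cells, was the only one of these to keep the call in the fits without array 01, with it alone and with the term. Its interaction was -1.58 (SE 0.282, limma adjusted p = 0.00164). Among 24 glucocorticoid and clock genes Tsc22d3, Bhlhe41, Per1, Sgk1 and Zbtb16 were called negative, and the first 4 kept the call in those fits. The list median was -0.08, and the clock genes Arntl, Clock and Nr1d1 did not pass the test, with interactions of 0.30, 0.03 and 0.14.

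Tsc22d3, a leucine zipper protein induced by glucocorticoids, read 8.34, 8.19 and 8.20 in 14-month HFD arrays, against 8.84, 8.82 and 9.32 in 14-month chow arrays. The 6-month values were 9.79, 9.74 and 9.58 in HFD arrays, against 8.28, 9.30 and 7.88 in chow arrays. The groups were apart at both ages, and the interaction was -1.96 (SE 0.406, limma adjusted p = 0.00489). Per1, a repressor of the circadian clock, was 9.23, 9.12 and 8.98 on HFD at 14 months, against 10.36, 10.47 and 10.75 on chow, and the diets overlapped at 6 months, with 9.84 to 9.96 on HFD and 9.73 to 10.02 on chow. Its interaction was -1.46 (SE 0.301, adjusted p = 0.00476). Pmaip1, a p53 target that promotes apoptosis, had an interaction of -2.2 (SE 0.505, adjusted p = 0.0113), and the fit of the 12 arrays alone gave an adjusted p of 0.0687.

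Megakaryocyte and platelet genes had the opposite sign. Of 26 measured, 13 were called with a positive interaction, against 1.09% of all probe sets, and 0 with a negative one (0 also at an unadjusted p below 0.05). The median was 1.77. The called members were the integrin chains Itga2b, Itgb3 and Itga6, the von Willebrand receptor subunit Gp5 and its ligand Vwf, the granule chemokine Pf4, the receptors Treml1, Clec1b and Mpig6b, the tubulin Tubb1 of the platelet rim, Gucy1b1, Rab27b and Trpc6. At 6 months the 3 HFD arrays all lay below the 3 chow arrays for 15 of the 26 genes, against 8.98% of all probe sets, and at 14 months for 1, against 13.3%. For 5 of the 26 the single-array differences at 14 months all lay above those at 6 months (4.48% of all probe sets). The list's median HFD difference was 0.12 at 14 months and -1.59 at 6 months.

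Pf4 read 8.83, 9.06 and 9.59 in 14-month HFD arrays, against 9.84, 8.84 and 8.71 in 14-month chow arrays. In 6-month arrays the values were 7.36, 7.54 and 8.82 on HFD, against 10.08, 9.77 and 10.63 on chow. The diets overlapped at 14 months and were apart at 6 months. The interaction was 2.28 (SE 0.45, limma adjusted p = 0.00343), and it was 2.32 without chow array 01 and 2.20 with that array alone.

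Gp5 read 7.94, 7.76 and 8.20 in 14-month HFD arrays, against 8.79, 7.52 and 7.29 in 14-month chow arrays. The 6-month HFD arrays gave 6.12, 6.24 and 6.82, against 8.33, 8.15 and 9.34 in the chow arrays. Chow array 01 was the high one at 14 months here and in Pf4. The interaction of Gp5 was 2.31 (SE 0.427, limma adjusted p = 0.00215), that of Treml1 2.27 (SE 0.415, adjusted p = 0.00207), that of Vwf 1.98 (SE 0.382, adjusted p = 0.00284) and that of Itga2b 1.79 (SE 0.37, adjusted p = 0.00491). Itga2b missed the threshold in the fit of the 12 arrays alone (adjusted p = 0.0523).

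The mean level of the 26 genes was 8.07, 8.15 and 8.44 in 14-month HFD arrays and 8.57, 7.81 and 7.76 in 14-month chow arrays. It was 7.42, 7.40 and 7.77 in 6-month HFD arrays and 9.16, 8.11 and 9.04 in 6-month chow arrays. The 6-month chow arrays were all above the 6-month HFD arrays, with array 02 the lowest of the 3. There were 13 positive calls without chow array 01, 18 with that array alone and 20 with the term for the 8 arrays, and 12 of the 13 members kept the call in all of these, the exception being Tubb1. The fit of the 12 arrays alone called 7. Pde5a, a phosphodiesterase that degrades cyclic GMP and was among the 12 most positive calls whose single-array differences at the 2 ages did not overlap, had an interaction of 1.94 (SE 0.385, limma adjusted p = 0.00362), reading 6.72, 6.62 and 6.85 in 6-month HFD arrays, against 8.67, 7.66 and 8.73 in 6-month chow arrays.

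**Figure D3:**
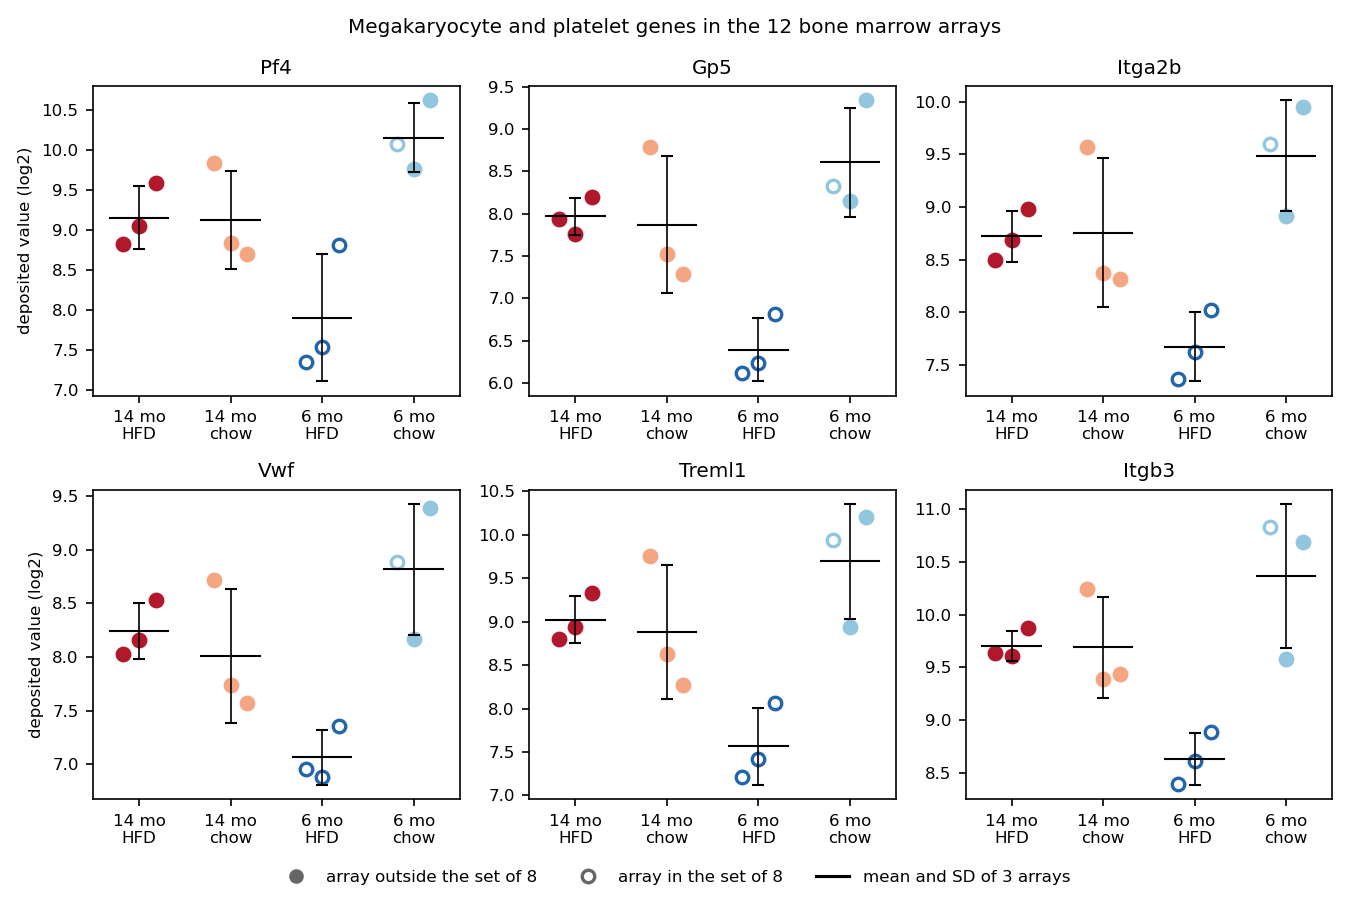
Deposited log2 values of 6 megakaryocyte and platelet genes in each of the 12 bone marrow arrays, by age and diet, with the mean and SD of 3 arrays; open points are arrays of the set of 8. The 6-month HFD arrays lie below the 6-month chow arrays in every panel, and the 14-month groups overlap.

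Members not called were Ppbp (2.02, adjusted p = 0.121), F2rl2 (2.07, adjusted p = 0.104), Gp9 (1.66, adjusted p = 0.0916) and 10 others, of which Nfe2 and Pdgfb had a negative sign. The window of Gp5 (chr16:30310732-30311031, minus strand, RefSeq GRCm38.p6) is shown for its pair of GATA sites, the motif of the factor GATA1 that drives megakaryocyte genes, with AGATAA or its reverse complement in capitals.
Gp5 promoter: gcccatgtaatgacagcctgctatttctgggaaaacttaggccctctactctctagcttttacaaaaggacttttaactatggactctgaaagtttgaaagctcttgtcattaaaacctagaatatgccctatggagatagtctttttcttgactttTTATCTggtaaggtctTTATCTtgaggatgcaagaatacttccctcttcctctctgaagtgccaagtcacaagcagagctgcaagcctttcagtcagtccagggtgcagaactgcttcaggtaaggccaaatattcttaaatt
These letters, on either strand, were found in 5 of the 20 platelet genes with a window (25.0%), namely Clec1b, F2rl2, Gp5, Mpig6b and Pf4, and in 11.4% of all windows. Of windows of called genes with a positive interaction 9.42% held them.

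Erythroid genes, from the lineage closest to megakaryocytes, had 0 calls among 21, against 2.82% of all probe sets. At that share a list of this size can hold 0 calls. Of the 21, 19 had a positive sign. At 14 months the 3 HFD arrays all lay above the 3 chow arrays for all 21, against 3550 of 23410 probe sets. At 6 months they did so for 0, against 6.16% of all probe sets. The list had 0 calls in the fit of the 12 arrays alone and 7 positive members at an unadjusted limma p below 0.05, with a median of 0.72. Without chow array 01 the iron carrier receptor Tfrc (1.74, adjusted p = 0.00569) and the heme synthesis genes Cpox (1.62, adjusted p = 0.00879) and Uros (1.08, adjusted p = 0.0369) were called positive. Of 31 proliferation genes the kinase Aurka and the replication licensing factor Cdc6 were called positive, against 1.09% of all probe sets. Both lost the call in at least 1 of the fits without array 01, with it alone and with the term. Among positive calls outside these lists was the splicing factor Luc7l3. It read 10.23, 10.41 and 10.43 in 14-month HFD arrays, against 9.60, 9.55 and 9.43 in 14-month chow arrays. At 6 months it read 9.12, 8.75 and 8.38 in HFD arrays, against 9.32, 10.11 and 10.56 in chow arrays. The diets were apart at both ages in opposite order, and the interaction was 2.08 (SE 0.303, limma adjusted p = 0.000193). Luc7l3 and Uck2, a uridine-cytidine kinase with an interaction of 2.0 (SE 0.326, adjusted p = 0.000724), kept their calls without chow array 01, with it alone and with the term, although a second probe set of Uck2 had 0.83.

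Other genes among those 12 positive calls lost their calls with array 01 as the only chow array. Mpp7, Ctla2a, Rabggtb, Rbm15b, Ikzf5 and Hells had interactions between 1.86 and 2.36 in the fit of 30 arrays, and between 0.82 and 1.40 with array 01 alone (adjusted p between 0.217 and 0.677). Rabggtb, a subunit of the enzyme that attaches lipid anchors to Rab proteins, is an example, which read 8.14, 7.78 and 7.57 in 6-month HFD arrays, against 8.12, 9.39 and 10.21 in 6-month chow arrays. Chow array 01 lay with the HFD arrays. At 14 months Rabggtb read 9.90, 10.16 and 10.23 in HFD arrays, against 9.81, 9.43 and 9.45 in chow arrays. Second probe sets of Mpp7, Ikzf5 and Rbm15b had interactions of 2.05, 0.89 and 0.05 in the fit of 30 arrays.

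Small nucleolar RNAs, which guide the chemical modification of ribosomal RNA, followed the grouping of 8 arrays in their levels. Of 55 measured, 13 were called negative, against 1.74% of all probe sets, and 0 positive, against 1.09%. At an unadjusted limma p below 0.05, 1 was positive, and the list median was -1.26. Their mean level was 6.92, 7.01 and 7.03 in 14-month HFD arrays and 6.83, 6.91 and 7.16 in 14-month chow arrays. It was 8.21, 8.56 and 8.74 in 6-month HFD arrays and 8.0, 6.83 and 6.81 in 6-month chow arrays. The 4 arrays of the grouping were thus the 4 high ones. There were 29 negative calls and 1 positive without chow array 01, 2 negative with that array alone and 4 with the term for the 8 arrays, and the medians of these fits were -1.46, -0.42 and -0.65. Rnu3a, a U3 RNA of early ribosomal RNA processing, was the one member called in all of them, with an interaction of -3.64 (SE 0.633, limma adjusted p = 0.00134).

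Rnu3a read 7.06, 7.46 and 7.33 in 14-month HFD arrays, against 8.38, 8.56 and 8.80 in 14-month chow arrays. The 6-month values were 11.33, 11.75 and 12.37 in HFD arrays, against 10.74, 9.76 and 7.91 in chow arrays. Snora69, another of the 13, was at 8.07, 8.53 and 9.14 in 6-month HFD arrays, against 7.49, 4.87 and 4.94 in 6-month chow arrays. The RNA genes n-R5s136 (5S ribosomal RNA) and Rny3 (a Y RNA) and the kinase gene Adck1, also among the 12 negative calls chosen like P2ry13, lost their calls with array 01 as the only chow array (interactions -1.88, -1.32 and -2.27, adjusted p = 0.212, 0.486 and 0.551). A second probe set of Adck1 had an interaction of -0.06.

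**Figure D4:**
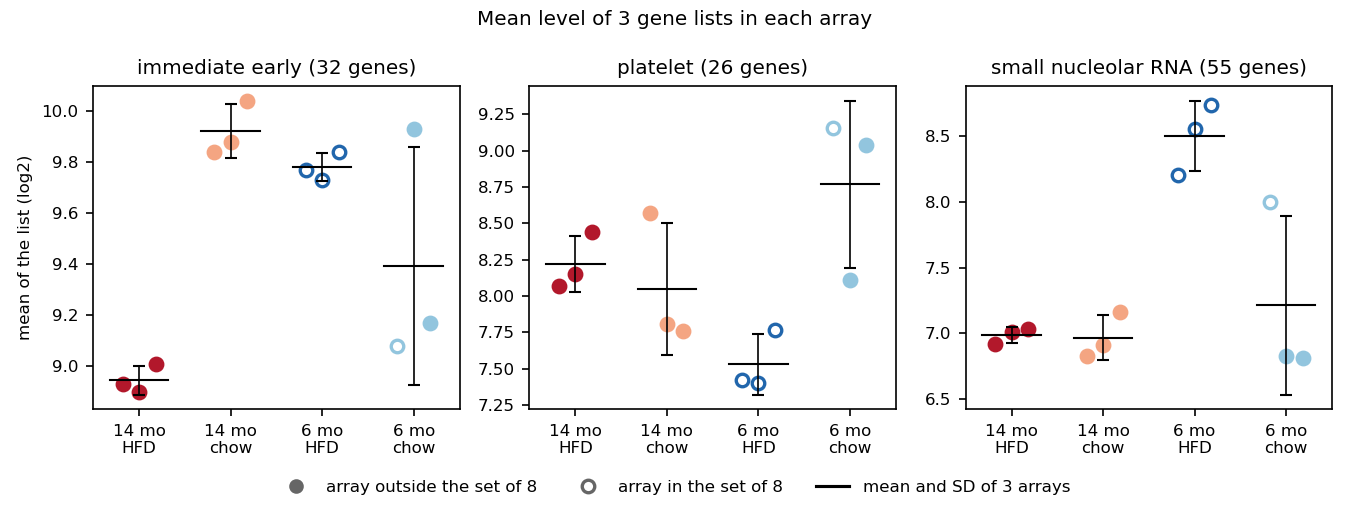
Mean log2 level of 3 gene lists in each of the 12 bone marrow arrays, by age and diet, with the mean and SD of 3 arrays; open points are arrays of the set of 8. In the small nucleolar RNA panel the 4 open points, at 8.0 to 8.74, lie above all filled ones, whereas in the immediate early and platelet panels the open 6-month chow array lies with filled chow array 03.

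Of 300 microRNA precursors with a probe set, 1 was called, against 2.82% of all probe sets. It was Mir15a, whose microRNA targets the survival factor BCL2 in human cells. It read 7.80, 7.90 and 7.87 in 14-month HFD arrays, against 8.27, 8.34 and 8.28 in 14-month chow arrays. In 6-month arrays the values were 8.69, 8.86 and 8.79 on HFD, against 8.07, 7.78 and 7.85 on chow. The diets did not overlap at either age, and the interaction was -1.31 (SE 0.245, limma adjusted p = 0.00223). It was called without chow array 01 (-1.40) and with that array alone (-1.14, adjusted p = 0.0485). The array does not tell precursor from mature forms, whose RefSeq sequences (GRCm38.p6, minus strand, chr14:61632075-61632096 for the 5p arm and chr14:61632038-61632059 for the 3p arm) are shown to identify the molecule, with the seed, bases 2 to 8, in capitals.
mmu-miR-15a-5p: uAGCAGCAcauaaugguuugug
mmu-miR-15a-3p: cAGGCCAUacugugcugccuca

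Genes of the fat cell itself gave no call in the fit of 30 arrays, in which 2.82% of all probe sets were called. At that share lists of this size can hold 0 calls, so a count of 0 does not set a list apart. Of 28 mature adipocyte genes 0 were called (0 in the fit of the 12 arrays alone, and 3 negative at an unadjusted limma p below 0.05), with a median of -0.19, and 1 was called negative without chow array 01 and 1 with the term for the 8 arrays. The adipokine Adipoq had an interaction of -0.43 (adjusted p = 0.753), the fatty acid carrier Fabp4 0.25 (adjusted p = 0.815) and Lep 1.12 (adjusted p = 0.264). Adipoq read 6.84, 6.72 and 7.5 in 14-month HFD arrays, against 7.74, 6.61 and 7.03 in 14-month chow arrays, and the 6-month arrays overlapped too, at 8.38 to 8.67 on HFD and 7.64 to 9.14 on chow. Of 22 genes of fatty acid synthesis 0 were called (1 positive at an unadjusted p below 0.05), and of 27 bone and stroma genes 0 (0 at an unadjusted p below 0.05). The fit of the 12 arrays alone called 0 of both lists. Among other lists, 0 of 8 class II antigen presentation genes (3 negative at an unadjusted p below 0.05, 0 in the 12-array fit, and H2-DMa negative without chow array 01), 1 of 22 neutrophil granule genes (Csf3r, negative), 1 of 59 ribosomal protein genes (Rpl30, positive), 2 of 33 genes of oxidative phosphorylation and fat oxidation (Hadhb and Etfdh, positive), 1 of 19 cholesterol genes (Stard4, positive) and 1 of 16 endothelial genes (Vwf, positive) were called. Csf3r, Rpl30, Hadhb, Etfdh and Stard4 each lost the call in at least 1 of the fits without array 01, with it alone and with the term. Of 15 heat shock genes 1 was called in each direction, of 23 stress and p53 genes 2 negative and 1 positive, and of 35 histone genes 3 negative. Over all probe sets 1.74% were called negative and 1.09% positive.

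**Figure D5:**
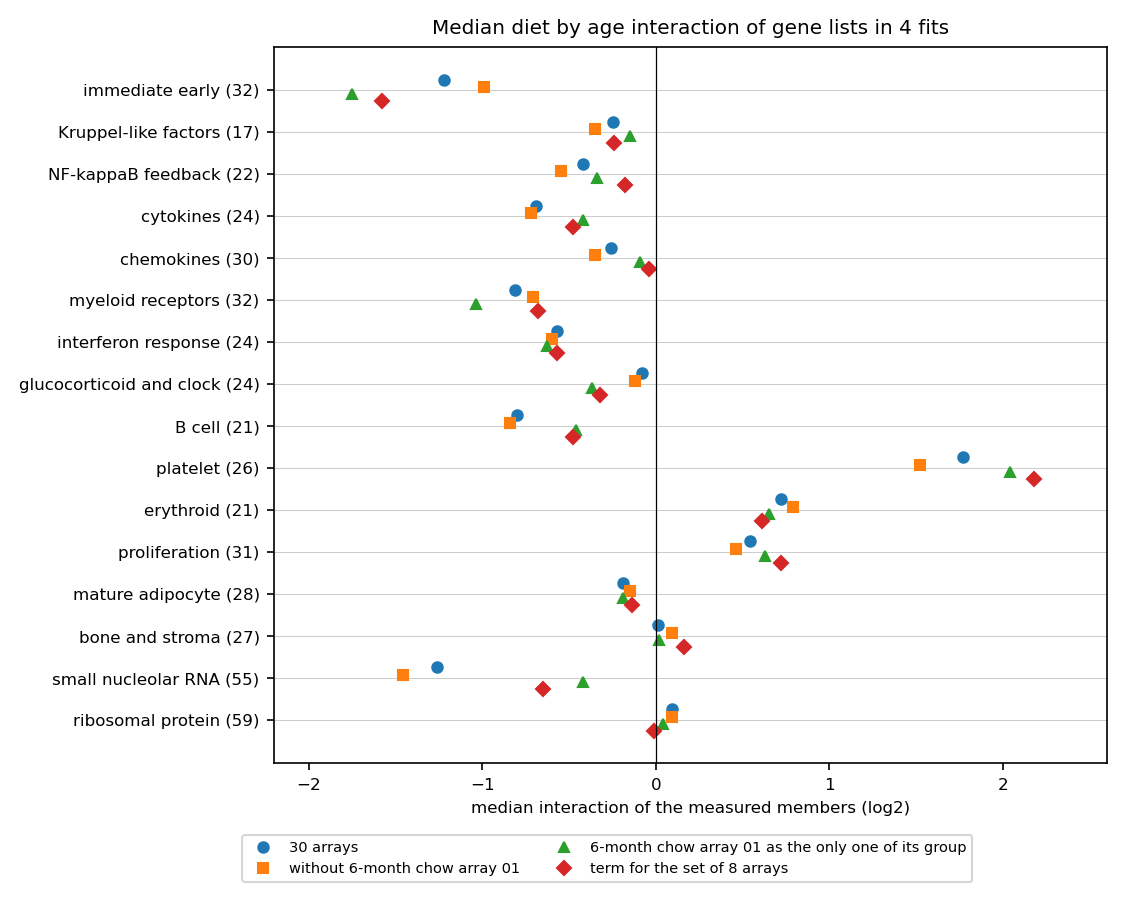
Median interaction (log2, x axis) of the measured members of 16 gene lists, with the number of members in brackets, in the fit of 30 arrays, without 6-month chow array 01, with that array as the only one of its group, and with a term for the set of 8 arrays. The immediate early list stays between -1.75 and -0.99 and the platelet list between 1.52 and 2.18, while the small nucleolar RNA list runs from -1.46 to -0.42.

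Genes that the study names for bone marrow adipocytes on the HFD were chosen on these samples. They are no independent evidence of direction or of the number called, which that choice favours. Over all probe sets 1.74% were called negative and 1.09% positive. Of 67 measured, 22 were called negative and 12 positive, with a median interaction of -0.15, and 17 negative and 8 positive members kept the call without chow array 01, with it alone and with the term. Those not described above include Dhrs9, a retinol dehydrogenase, with an interaction of -2.49 (SE 0.395, limma adjusted p = 0.000607), and Rgs3, a regulator of G protein signalling, with -2.18 (SE 0.422, adjusted p = 0.00287). Gab1, a docking protein of growth factor receptors, had a positive interaction of 1.30 (SE 0.211, adjusted p = 0.000651), reading 7.67, 7.75 and 7.89 in 14-month HFD arrays, against 6.92, 6.99 and 6.89 in 14-month chow arrays.

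To show what was particular to bone marrow, the interaction was compared with the same one in epididymal adipocytes of these mice by a contrast of the 2. The bone marrow interaction was lower for 979 probe sets (4.18%) and higher for 1705 (7.28%), but after centring each array on its median for 1321 and 1316, so the split between directions depends on the scaling. Of the 407 negative and 254 positive calls in bone marrow, 112 and 68 also differed from the epididymal interaction in the same direction. These calls were picked by the bone marrow interaction, which is part of that contrast, so the choice favours such counts. The list counts that follow were taken without median centring. Of the 32 immediate early genes 22 were lower in bone marrow and 3 higher, and the list's median was -1.22 in bone marrow and 0.70 in epididymal adipocytes. Fos had an interaction of -2.43 in bone marrow and 3.05 in epididymal adipocytes, a difference of -5.48 (limma adjusted p = 1.74e-06). For Jun they were -2.60 and 0.93, a difference of -3.53 (adjusted p = 7.82e-08).

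Inflammatory genes did not all share this. Tnf had interactions of -2.28 in bone marrow and -2.65 in epididymal adipocytes, and their difference of 0.38 did not pass the test (adjusted p = 0.606). The same held for Nlrp3, with -2.70 and -2.62 (difference -0.08, adjusted p = 0.96). Of the 32 myeloid receptor genes 16 were higher and 1 lower in bone marrow, against 7.28% and 4.18% of all probe sets. Their median interaction was -0.81 in bone marrow and -2.79 in epididymal adipocytes. Of the 26 platelet genes 11 were higher in bone marrow, against 7.28% of all probe sets. Among them were Pf4 (difference 5.01, limma adjusted p = 4.16e-06) and Vwf (4.28, limma adjusted p = 3.85e-06). Both had a negative epididymal interaction (-2.73 and -2.30). All 3 epididymal 6-month HFD arrays belong to the set of 8 as well. A fit with a term for the set gave 2871 calls for the difference between depots, against 2684 without it. In epididymal arrays the set is the same as the 6-month HFD group, so this count cannot show the part of the set.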

How the data were processed

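The authors deposited log2 values made in Partek. The methods name gcRMA with quantile normalization and the labels also RMA, so the summary step is not settled. Of 35556 probe sets, the 23410 with a gene symbol in the platform annotation were tested, and the 1621 with several symbols were not named. A model of 10 group means on 30 arrays (18-month arrays left out) was fitted in limma 3.58.1 under R 4.3.3, with moderated variances and Benjamini-Hochberg adjustment. Calls also needed a 2-fold interaction. A list took the probe set of highest mean for each gene. Genes were named as the 12 most negative and 12 most positive calls whose single-array differences did not overlap, list members, or genes the study names. Members and lists were chosen with earlier results of these data known. The fit without 6-month chow array 02 was added after seeing the data. Promoters (1 window per gene) and microRNAs are RefSeq's. Alternatives covered array sets, normalization, filters, weights, a replicate block, left-out arrays and the set of 8. The number of arrays limits precision. Some genes are not reported here.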

Additional observations from a re-analysis of the deposited data

Results flagged for a closer look

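The diet difference in bone marrow differed between 14 and 6 months for 661 probe sets, by the test of the interaction itself. The interaction differed between bone marrow and epididymal arrays for 2684 probe sets. The share was 11.5% of all probe sets. Among the 12 most negative and 12 most positive bone marrow calls with no overlap of single-array differences between the ages, 9 had such a difference between the depots. These genes were picked by the size of the bone marrow interaction, which is part of that difference, so the choice favours such a count. Bone marrow minus epididymal, the difference was -4.91 for Fosb, -4.54 for Egr1, -3.96 for Atf3, -3.32 for n-R5s136, -2.38 for Plk2 and -1.81 for Cd69, all lower in bone marrow. It was 4.28 for Vwf, 2.88 for Pde5a and 1.78 for Luc7l3, all higher in bone marrow. In data outside the comparison, 18 of 12146 probe sets without a gene symbol set 8 arrays apart from the other 28. The 8 were all 3 6-month HFD arrays of each depot, 6-month chow array 01 and ob/ob array 03 of bone marrow. Neither the labels nor the methods name a batch that these 8 arrays share.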

How the results depend on the processing

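The count of 661 calls was 1014 at an unadjusted p, 1248 with no fold minimum, 1329 with array weights, whose estimation stopped short of its tolerance, and 368 with 6-month chow array 01 as the only array of its group. Leaving out 1 of the 12 bone marrow arrays gave between 298 and 1518 calls, the lowest without 6-month chow array 03 and the highest without array 01, and 428 without 14-month HFD array 03. All other alternatives gave 468 to 906 calls, and 61.6% of the main calls were negative, against 79.2% of the 477 calls of the 12 arrays alone, 47.5% without 6-month chow array 01 and 46.8% without 6-month HFD array 01 (844 calls). Leaving out 1 array gave 2484 to 2820 calls for the difference between the depots, and its other alternatives 2379 to 3233. Of 128 genes followed, those named by size or called in a list, 48 kept their call under every alternative that gave a value, 69 kept it in all 12 fits without 1 array, and 0 changed sign. A replicate block gave 581 calls for the interaction and 2609 for the difference between depots. The correlations of deviations of same-numbered arrays ran from -0.329 to 0.163 among the bone marrow groups, with 4 of 18 over 0.1. Between bone marrow and epididymal arrays they ran from -0.157 to 0.12, with 1 of 12 over 0.1. Such correlations cannot tell whether same-numbered pools of the depots came from the same mice, and the main fit used no pairing. With 3 pools a group, a gene that was not called may still differ.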
